A study of Mus musculus with 8 samples.

Results

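The genes described here encode the subunits that COMPASS/KMT2 complexes carry besides their catalytic KMT2 protein. The 10 genes were taken as a list of names, and no measured value enters the rule. The list was chosen with earlier results of these data known. The 4 genes Ash2l, Wdr5, Rbbp5 and Dpy30 encode the WRAD core shared by all KMT2 complexes, and the 6 genes Cxxc1, Wdr82, Men1, Psip1, Paxip1 and Ncoa6 encode subunits found only in some of them. They were 10 of 21938 protein-coding genes in the annotation, and 5 of the 6444 listed ASH2L sites lay within 3 kb of one of their transcription start sites (TSSs) or inside one of their bodies.

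KMT2 complexes methylate lysine 4 of histone H3. The tri-methylated form marks active promoters and the mono-methylated form marks enhancers. The WRAD proteins raise the activity of the catalytic subunit, whereas the complex-specific subunits contribute to where a given complex is found. Many mammalian promoters lie in CpG islands, stretches in which CpG dinucleotides are dense, and KMT2 complexes are known to associate with such islands.

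The sites came from chromatin immunoprecipitation and sequencing (ChIP-seq) in iMEF cells, which are immortalized mouse embryo fibroblasts of the genotype Ash2l fl/fl with Cre-ER. These cells carried a lentiviral human ASH2L with N-terminal FKBP12F36V, a tag through which the compound dTAG brings the fusion protein to degradation, and exon 4 of both endogenous alleles had been deleted before single clones were chosen. This genotype was shared by all 8 libraries, which were 2 ASH2L precipitates and 2 inputs without dTAG and 2 ASH2L precipitates and 2 inputs after 1 h of dTAG. The labels name an Ash2l antibody, whereas the methods describe precipitation of the fusion protein through its HA tags. The sites were listed once for all samples, by their positions and with no value for any sample. Binding with and without dTAG was therefore not compared here, the number of reads behind a site is unknown, and no site has a replicate error. A gene without a site is one at which none was listed, and weaker binding there would not be seen.

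In all, 5 genes of the list carried 1 site each at their promoter, namely Ash2l, Wdr5, Rbbp5, Psip1 and Paxip1. The sequences below show what ASH2L-bound DNA at these genes looks like, next to 2 promoters of the same list without a site. They were read 5′ to 3′ on the strand of the gene from the GRCm38 (mm10) assembly, with every CpG in capitals. Stretches within an untranslated region of any GENCODE or RefSeq transcript were left out, which left no run of 30 bases or more in the Wdr5 site because a RefSeq transcript starts within it, so that the runs are parts of sites and not whole sites. The Ash2l stretch (chr8:25840458-25840581, minus strand) is the part of the site in intron 1 of the main transcript, upstream of an internal TSS. The Rbbp5 stretch (chr1:132477065-132477347, plus strand) is the interval between the start of a divergent noncoding transcript and the first RefSeq start of Rbbp5. The Psip1 stretch (chr4:83486464-83486538, minus strand) is the part of the site upstream of the gene, and the Paxip1 stretch (chr5:27791131-27791198, minus strand) lies in the intron behind its first coding exon. The stretches of Dpy30 (chr17:74316469-74316683, minus strand) and Ncoa6 (chr2:155473912-155474161, minus strand) lie just upstream of the main cluster of TSSs of genes that had no site.
Ash2l: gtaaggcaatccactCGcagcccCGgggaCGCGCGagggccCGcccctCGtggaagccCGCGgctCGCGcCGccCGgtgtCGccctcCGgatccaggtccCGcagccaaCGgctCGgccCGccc
Rbbp5: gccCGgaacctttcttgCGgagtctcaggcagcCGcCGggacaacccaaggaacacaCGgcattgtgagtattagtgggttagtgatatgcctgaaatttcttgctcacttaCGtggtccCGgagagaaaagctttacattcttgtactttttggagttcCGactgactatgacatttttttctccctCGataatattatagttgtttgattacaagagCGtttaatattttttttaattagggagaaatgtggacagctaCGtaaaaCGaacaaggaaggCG
Psip1: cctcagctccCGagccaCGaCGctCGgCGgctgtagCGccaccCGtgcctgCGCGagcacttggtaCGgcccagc
Paxip1: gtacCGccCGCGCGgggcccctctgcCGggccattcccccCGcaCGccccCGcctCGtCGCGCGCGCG
Dpy30: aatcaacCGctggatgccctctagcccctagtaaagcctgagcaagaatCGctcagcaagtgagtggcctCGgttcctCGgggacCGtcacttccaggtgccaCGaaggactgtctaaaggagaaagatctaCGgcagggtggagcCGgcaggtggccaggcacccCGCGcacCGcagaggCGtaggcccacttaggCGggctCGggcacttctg
Ncoa6: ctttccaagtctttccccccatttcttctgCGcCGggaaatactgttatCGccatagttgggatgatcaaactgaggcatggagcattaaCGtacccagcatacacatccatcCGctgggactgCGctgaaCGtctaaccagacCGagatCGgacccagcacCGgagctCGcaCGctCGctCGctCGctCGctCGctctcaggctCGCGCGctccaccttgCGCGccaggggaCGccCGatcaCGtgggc
The Ash2l, Psip1 and Paxip1 stretches were rich in G and C, at 78.2%, 73.3% and 85.3%, and held 19, 10 and 14 CpGs in 124, 75 and 68 bases. The Rbbp5 stretch stood apart with a GC content of 42.8% and 13 CpGs in 283 bases, with long runs of A and T near the Rbbp5 start. Per 100 bases, the Ash2l, Psip1 and Paxip1 stretches held 15.3, 13.3 and 20.6 CpGs and the Rbbp5 stretch 4.59. The stretches without a site lay between them, with a GC content of 62.3% and 14 CpGs in 215 bases (6.51 per 100) at Dpy30 and 60.4% and 25 CpGs in 250 bases (10.0 per 100) at Ncoa6. The positions are unlike, since the Dpy30 and Ncoa6 stretches lie upstream of the starts and those of Ash2l and Paxip1 in introns. They are examples and do not compare bound with unbound promoters. In 1001 bp around each main TSS, the CpG counts of genes with and without a site overlapped, as given below.

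The first question was whether genes of the WRAD core and of the complex-specific subunits were themselves bound by ASH2L. A site centred within 1 kb of an annotated TSS was listed for 3 of the 4 core genes and for 2 of the 6 complex-specific genes. Together, 5 of the 10 genes had such a site, beside 14.0% of all protein-coding genes. All 10 genes had a CpG island, and the share among protein-coding genes with an island was 19.0%. At numbers of CpGs like those of the 10 genes, the share ran from 15.9% to 43.0%, as given below. The count was again 5 of 10 within 3 kb, beside 15.4% of all protein-coding genes. No test was made on these counts, since the genes are a chosen list and are not replicates, and the difference between 3 of 4 and 2 of 6 rests on few genes.

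**Figure D1:**
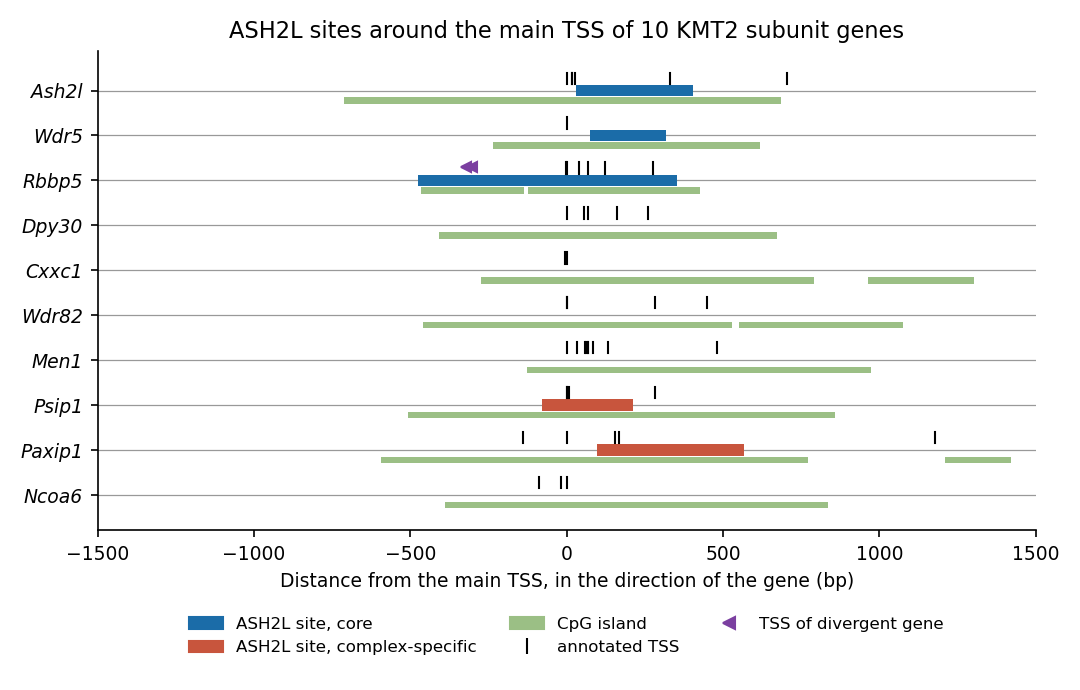
Listed ASH2L sites (thick bars, blue for core and red for complex-specific genes), CpG islands (green bars), annotated TSSs (black ticks) and TSSs of a divergent gene (purple arrowheads) within 1500 bp of the main TSS of each of the 10 genes, drawn in the direction of the gene. Only 5 genes have a site whereas all 10 have an island, and the sites of Ash2l, Wdr5 and Paxip1 lie wholly downstream of the main TSS.

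Of the core genes, Ash2l (ENSMUSG00000031575.18) is the endogenous mouse counterpart of the human ASH2L fusion that was precipitated, and its protein stimulates the catalytic subunit together with RBBP5. Its site (chr8:25840383-25840757) was 375 bp wide and was the only listed site in the 31699 bp gene. The annotation gives 11 TSSs for Ash2l, of which 1, at position 25840457, lay inside the site, and the centre of the site was 113 bp upstream of it. Relative to the main TSS at 25840787, defined as the TSS with most coding transcripts starting close by, the centre was 217 bp downstream and the site spanned +30 to +404 bp. In the main transcript the site covered 176 bp of the coding sequence of exon 1 and 199 bp of intron 1, with its centre in the intron. It overlapped none of exons 2 to 16 and lay 4294 bp from exon 4, the exon that is deleted in these cells. The most upstream annotated start of the gene, at 25847694, was 7124 bp from the centre of the site and had no site of its own.

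Wdr5 (ENSMUSG00000026917.15) encodes the WD repeat protein that holds the catalytic subunit and the core together. Its site (chr2:27515232-27515474) was the narrowest of the 5 at 243 bp and was centred 196 bp downstream of the main TSS at 27515157, from +75 to +317 bp. It covered 49 bp of the 5′ untranslated region and 194 bp of the first intron. None of the 3 GENCODE TSSs of Wdr5 was inside the site, whereas a RefSeq TSS was, 47 bp upstream of its centre. It had the highest GC content of the 5, at 80.25%, and the highest CpG density, at 17.7 CpGs per 100 bp.

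Rbbp5 (ENSMUSG00000026439.14) encodes the WD repeat subunit that contacts ASH2L and the catalytic domain. Its site (chr1:132476890-132477719) was the widest of the 5 at 830 bp and the only one centred upstream of the gene, 61 bp before the nearest TSS. It ran from -477 to +352 bp around the main TSS and contained 6 of the 7 annotated TSSs of the gene. Of its length, 477 bp lay outside the main transcript, 142 bp in the 5′ untranslated region, 19 bp in coding sequence and 192 bp in the first intron. The same site also covered both TSSs of 6030442K20Rik, a noncoding gene transcribed in the opposite direction from positions -303 and -322 bp relative to the main Rbbp5 TSS. Rbbp5 was the only 1 of the 10 genes with a divergent partner within 1 kb upstream, beside 18.3% of all protein-coding genes. A promoter site was listed for 28.2% of the protein-coding genes that have such a partner.

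Dpy30 (ENSMUSG00000024067.14) encodes the small subunit that binds ASH2L as a dimer, and it was the core gene for which no site was listed. The gene has 6 annotated TSSs, of which 5 lie within 260 bp of each other in a CpG island of 1082 bp. The remaining TSS lies at -7481 bp relative to the main one. The nearest listed site (chr17:74294442-74294768) was 327 bp wide, lay 4869 bp beyond the 3′ end of Dpy30 and was centred 185 bp from a TSS of Memo1. It was 21598 bp from the nearest Dpy30 TSS. The next nearest was 165767 bp away and was centred 161 bp from a TSS of Yipf4.

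Among the complex-specific genes, Psip1 and Men1 encode partners of the KMT2A and KMT2B complexes, and 1 of these 2 genes had a site. Psip1 (ENSMUSG00000028484.16) encodes a chromatin reader that binds menin. Its site (chr4:83486246-83486538) was 293 bp wide, was centred 61 bp downstream of the nearest TSS and ran from -79 to +213 bp around the main TSS at 83486459. It contained 3 of the 7 annotated TSSs of the gene, with 79 bp upstream of the main transcript, 185 bp in the 5′ untranslated region and 29 bp in the first intron. Men1 encodes menin, the tumour suppressor that links KMT2A to its partners. No site was listed for it, and the nearest lay 257783 bp away, centred 2 bp from a TSS of Vps51, with the next at 489653 bp, close to Neat1.

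Paxip1 and Ncoa6 encode subunits of the KMT2C and KMT2D complexes, and 1 of these 2 genes had a site. Paxip1 (ENSMUSG00000002221.11) encodes a protein with BRCT domains that also acts in the response to DNA damage. Its site (chr5:27790984-27791453) was 470 bp wide and wholly downstream of the main TSS at 27791550, from +97 to +566 bp. The centre was 165 bp downstream of the nearest annotated TSS and 332 bp downstream of the main TSS, but lay upstream of the nearest RefSeq TSS, at -88 bp. The site covered 174 bp of untranslated first exon, 81 bp of coding sequence, where its centre lay, and 215 bp of intron. Ncoa6 encodes a coactivator of nuclear receptors. It is the longest of the 10 genes at 83239 bp and had no site near a TSS or in its body. The nearest was 266809 bp away, with Gm17581 as the closest gene at 4837 bp, and the next was 341252 bp away, closest to the gene a.

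Cxxc1 and Wdr82 encode subunits of the SETD1A and SETD1B complexes, and none of these 2 genes had a site. CXXC1 is the subunit that binds unmethylated CpG directly, and WDR82 links the complex to RNA polymerase II. The nearest site lay 461621 bp from a TSS of Cxxc1, centred 24 bp from a TSS of Elac1, and 192150 bp from a TSS of Wdr82, centred 195 bp from a TSS of Dusp7. The next nearest lay 509700 bp from Cxxc1, at Smad4, and 252855 bp from Wdr82, at Rpl29.

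The distances thus fell into separate ranges. The 5 genes with a site lay 61 to 196 bp from its centre, Dpy30 lay 21598 bp from one, and the other 4 genes lay 192150 to 461621 bp away. Over all protein-coding genes the median distance was 93820 bp, and over those without a promoter site it was 123900 bp. Dpy30 was closer to a site than 74.82% of all protein-coding genes, whereas Cxxc1 was closer than 15.12% of them.

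**Figure D2:**
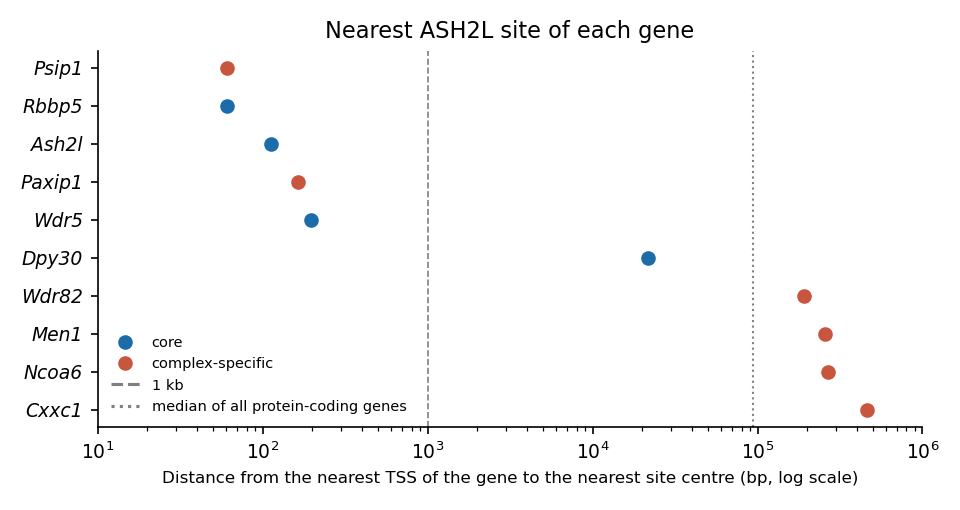
Distance in bp, on a log scale, from the nearest TSS of each gene to the centre of the nearest listed site, with the 1 kb limit (dashed) and the median over all protein-coding genes (dotted, 93820 bp). Genes with a site lie between 61 and 196 bp, and Dpy30 at 21598 bp is the only gene between the limit and the median.

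Inside the gene bodies, 4 of the 10 genes had a site by its centre, beside 15.8% of all protein-coding genes. These were the promoter sites of Ash2l, Wdr5, Psip1 and Paxip1 seen from their position in the transcript, while the Rbbp5 site was centred outside the gene. None of the 10 genes had a site in its body farther than 3 kb from its own TSSs, beside 4.59% of all protein-coding genes. The bodies of the 10 genes ranged from 5373 bp for Cxxc1 to 83239 bp for Ncoa6, and the median over all protein-coding genes was 17420 bp. Within 100 kb of a TSS, 6 of the 10 genes had a site, beside 51.6% of all protein-coding genes, with 3 sites for Ash2l, 2 for Paxip1, 1 each for Wdr5, Rbbp5, Psip1 and Dpy30, and none for the other 4 genes. The further sites of Ash2l were centred 93 bp from a TSS of Lsm1 and 256 bp from a TSS of Ddhd2.

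Next, the widths and the base composition of the 5 sites were set against the 3377 sites of the list centred within 1 kb of any TSS. Those promoter sites had a median width of 304 bp (quartiles 230 and 423 bp). The widths of the core genes, 243, 375 and 830 bp, overlapped those of the complex-specific genes, 293 and 470 bp. Wdr5 was wider than 30.09% of the promoter sites, Psip1 than 46.94%, Ash2l than 66.24%, Paxip1 than 80.37% and Rbbp5 than 95.03%. The widest of them, Rbbp5, was also the one that covered starts in both directions.

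**Figure D3:**
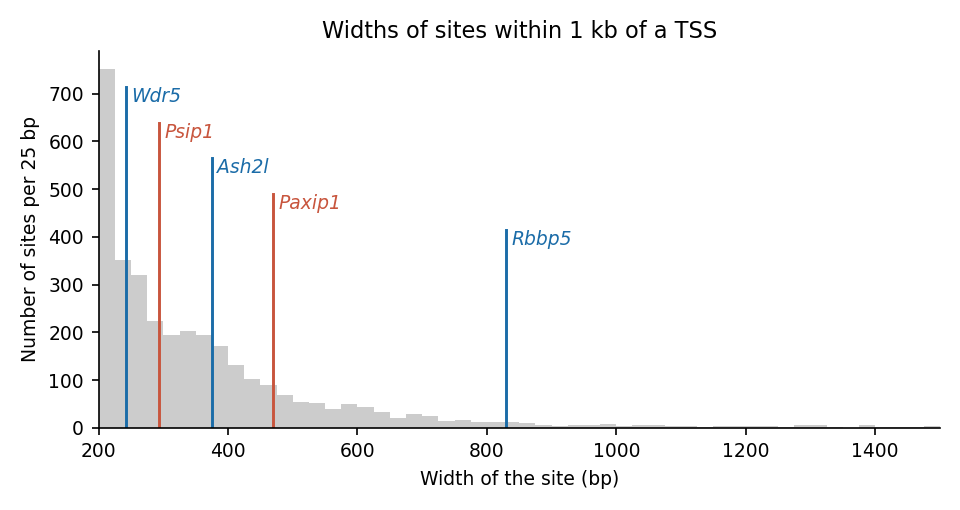
Number of sites per 25 bp of width among the 3377 sites centred within 1 kb of a TSS (grey bars, axis shown up to 1500 bp), with the widths of the 5 sites as vertical lines (blue, core; red, complex-specific; the line height has no meaning). Wdr5 at 243 bp and Psip1 at 293 bp lie below the median of 304 bp, and Rbbp5 at 830 bp lies in the tail.

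The GC content of the promoter sites had a median of 65.8% (quartiles 55.5% and 72.7%), and their CpG density a median of 9.27 per 100 bp. The site of Ash2l had a GC content of 75.73%, that of Wdr5 80.25%, that of Psip1 78.84% and that of Paxip1 78.3%, all above the upper quartile. The site of Rbbp5 had 51.57%, below the lower quartile. The CpG densities were 12.53 per 100 bp for Ash2l, 17.7 for Wdr5, 16.38 for Psip1 and 15.96 for Paxip1, and 5.542 for Rbbp5. Wdr5, Psip1 and Paxip1 thus exceeded 98.87%, 96.65% and 95.23% of the promoter sites in CpG density, Ash2l 76.87% and Rbbp5 26.09%.

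A CpG island lay within 1 kb of a TSS in all 10 genes, beside 73.4% of all protein-coding genes. An island was called where the genome sequence held over 50% GC and more than 0.6 of the CpGs that its base composition predicts, over 200 bp or more. Of the protein-coding genes with an island, 19.0% had a site within 1 kb of a TSS. The sites of Ash2l, Wdr5, Psip1 and Paxip1 lay entirely inside an island, of 1400, 856, 1365 and 1365 bp. The Rbbp5 site lay over 2 shorter islands, which took up 97.35% of it. Islands at the genes without a site were of similar length, with 1082 bp at Dpy30, 1065 bp at Cxxc1, 989 bp at Wdr82, 1099 bp at Men1 and 1224 bp at Ncoa6.

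The CpG content around the main TSS did not separate the genes with a site from those without. In 1001 bp centred on the main TSS, the genes with a site held 52 (Rbbp5), 79 (Ash2l), 90 (Wdr5), 104 (Psip1) and 113 CpGs (Paxip1). Those without a site held 48 (Men1), 81 (Cxxc1), 82 (Dpy30), 87 (Wdr82) and 120 (Ncoa6). The ranges overlapped almost entirely, and the gene with most CpGs, Ncoa6, had no site. Over all protein-coding genes the median was 74 CpGs with a promoter site and 35 without, and 54 for genes that have an island but no site. The share of genes with a site rose with the number of CpGs, from 2.09% at 0 to 19 CpGs to 15.9% at 40 to 59, 28.5% at 80 to 99 and 43.0% at 120 or more. Of the 10 genes, 4 had 80 to 99 CpGs, and 1 of these, Wdr5, had a site. The tally was 1 of 2 at 40 to 59 CpGs and 1 of 1 at 60 to 79. It was 2 of 2 at 100 to 119 and 0 of 1 at 120 or more.

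**Figure D4:**
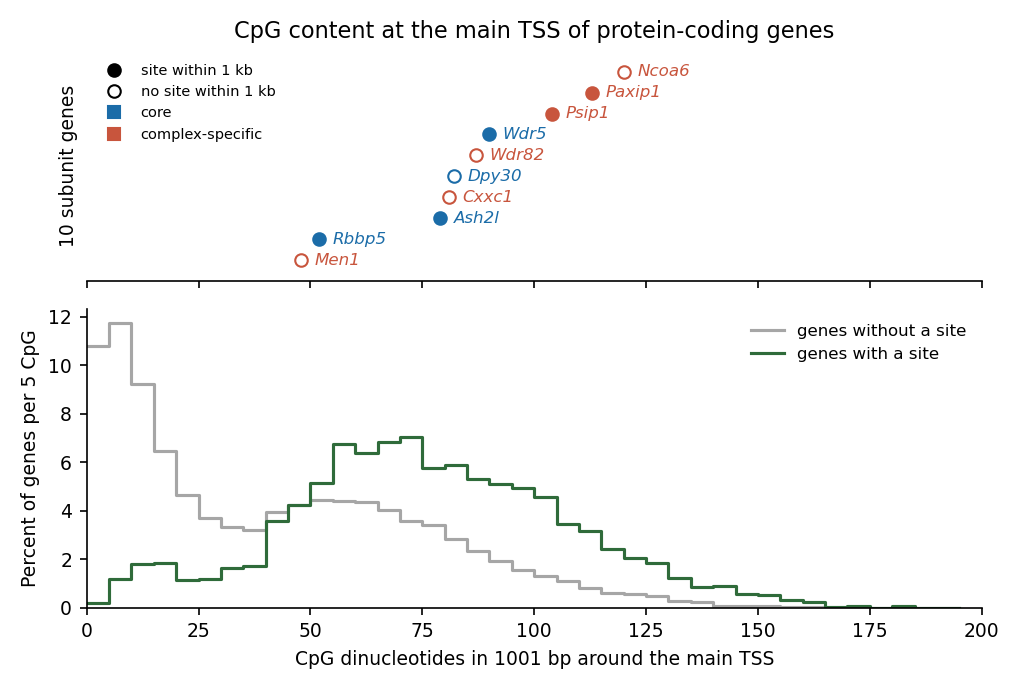
Top, number of CpG dinucleotides in 1001 bp around the main TSS of the 10 genes (blue, core; red, complex-specific; filled, site within 1 kb; open, none; vertical order only by CpG count). Bottom, the same count over all protein-coding genes with and without a site, in percent of the genes of each kind per 5 CpGs. Filled and open symbols are interspersed between 48 CpGs (Men1) and 120 CpGs (Ncoa6).

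Short sequence motifs were then searched on both strands in the 200 bp around the centre of each site, with exact letters. The GC box GGGCGG, which SP and KLF factors bind, occurred there in Ash2l, Wdr5 and Paxip1, and in 45.2% of all promoter sites. Over the whole sites it occurred 5 times in Ash2l, 3 times in Psip1, 2 times in Paxip1 and once each in Wdr5 and Rbbp5, beside at least 1 match in 57.5% of all promoter sites over their own widths. The E-box CACGTG, which MYC and its relatives bind, occurred among the 5 sites only in that of Wdr5, within these 200 bp. It was there in 3.35% of all promoter sites, and in 6.6% over their own widths. The same letters also occur in the stretch printed above for Ncoa6, which had no site. The letters ATGGCGG, part of the YY1 motif, occurred once in the Ash2l site outside its centre (13.4% of all promoter sites over their own widths), and the CCAAT box occurred once in the Rbbp5 site (20.5%), which is wider than most. The ETS letters CCGGAAG (18.2% of all promoter sites), NRF1 letters GCATGCG (2.55%), AP-1 letters TGANTCA (5.69%), CRE letters TGACGTC (2.84%) and TATA box letters TATAAA (5.69%) were in none of the 5 sites, and at these shares nothing can be read from 5 sites.

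In the RefSeq promoter windows of 300 bases (GRCm38.p6), for which 7 of the 10 genes were matched and Ash2l, Cxxc1 and Psip1 were not, the GC box was found in 46.2% of all 21263 windows and CCAAT in 38.2%. Both occurred in all 3 windows of Men1. The window of Wdr82 held the GC box, the YY1 letters (5.25% of all windows) and the CRE letters (3.84%), and that of Paxip1 held the GC box and the NRF1 letters (4.44%). The window of Wdr5 held the GC box. The window of Ncoa6, which belongs to a start downstream of its main TSS, held CCAAT and the TATA box letters (12.6%). Of the 4 windows of Dpy30, 1 held the GC box and 1 held CCAAT, and the window of Rbbp5 held none of the 9 motifs. A match is a description of the sequence and not a bound factor.

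Of the other genes of the pathway, the catalytic subunits had a promoter site in 5 of 6 cases, with Kmt2b as the exception. The share was 14.0% of all protein-coding genes and 19.0% of those with an island. Of these 6 genes, 4 had a divergent partner, for which the share was 28.2%. The 6 genes held 86 to 141 CpGs around the main TSS, where the share was 28.5% to 43.0%. The offset from the nearest TSS was -197 bp for Kmt2a, -99 bp for Setd1a and -102 bp for Setd1b. It was -876 bp for Kmt2d and 785 bp for Kmt2c, near the 1 kb limit, and narrower windows were not tried for these genes. The sites of Setd1a, Kmt2a, Kmt2d and Kmt2c were 824, 605, 525 and 424 bp wide, and the nearest of the 2 sites of Setd1b was 223 bp wide. Of 14 further subunits and partners of KMT2 complexes or of WDR5, 6 had a promoter site, beside the same 14.0% and 19.0%. An island lay within 1 kb of a TSS in all genes of both lists. Those with a site were Bod1 and Bod1l, whose proteins are found with SETD1 methyltransferases, the chromatin remodeller gene Chd8, the genes Kansl1 and Kansl2 of the NSL acetyltransferase complex, which also contains WDR5, and Kdm6a, the demethylase gene of KMT2C and KMT2D complexes. The Kdm6a site was the widest of these at 907 bp and the Bod1 site the narrowest at 210 bp. No promoter site was listed for Phf20, Pagr1a, Kat8, Hcfc2, Mcrs1, Hdgfl2, Hcfc1 and Ogt. These lists were likewise compared only by their counts.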

How the data were processed

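ChIP-seq for ASH2L was performed in iMEF cells in 8 libraries (4 ASH2L precipitates and 4 inputs, with or without 1 h of dTAG). The authors processed the reads with Trim Galore (trimming), BWA (alignment to mm10), SAMtools (filtering) and Picard (merging of replicates), and MACS gave the narrow peaks. The submitters' processing notes also name MACS2, deepTools and DESeq2, without versions. The deposited list holds genomic positions only (chromosome, start and end in bp) of 6444 sites combined over all samples. It has no score, signal or read number, so the reads behind a site are unknown. The methods state a minimum of raw reads for each ChIP library, and library totals were not used here. The planned test of signal with and without dTAG could therefore not be made from it, and the authors' own comparison of ASH2L sites with and without dTAG was not used here. Starts were read as counted from 0 and are printed counted from 1, and 6428 sites on the 21 assembled nuclear chromosomes were used.

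TSSs of all transcripts came from GENCODE release M21 (GRCm38.p6), with RefSeq as an alternative. A site was assigned to a gene by its centre, within 1 kb or 3 kb of a TSS or inside the body. Offsets are positive downstream in the direction of the gene. The main TSS was the one with most coding transcripts starting within 300 bp, then the APPRIS principal one, then the most upstream. A divergent partner was another gene on the opposite strand with a TSS within 1 kb upstream. CpG islands were computed from the sequence. Counts were set beside the share over 21938 protein-coding genes without a test. The assignment was tested on simulated sites before use. Python 3.11.15, NumPy 2.4.6, pandas 2.3.3, pysam 0.24.0 and matplotlib 3.10.9 were used. All 10 genes are named. The other genes of the pathway came from lists of 6 and 14 genes, and the 2 nearest sites are named for genes without one. The genes, lists and motifs were chosen with earlier results of these data known. Alternatives changed the distance, the annotation, the window, the counting of starts, the merging of sites, the island definition and the partner rule. Untranslated sequence and sequence of chromosome 18 are not printed.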

Additional observations from a re-analysis of the deposited data

How the results depend on the processing

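No paired analysis was possible because the list of sites gives no value for any sample. Of 52 alternative values, for the counts and for the share over all protein-coding genes, 51 stayed within 1.5 times the reported value. These 51 include a core count of 2 in place of 3. The exception was the count of genes with a divergent partner, which was 0 when only protein-coding partners were accepted, since the partner of Rbbp5 is noncoding. The same 5 genes had a promoter site under each alternative except when only the 5′ end of each gene was used, where 4 were left because the Ash2l site lies 7124 bp from that end, and the core count was 2 of 4. That setting also left 9 of 10 genes with an island. The side of the TSS on which a site lay was less stable. The Ash2l offset of -113 bp became 7124 bp from the 5′ end of the gene and 217 bp from the main TSS. The Paxip1 offset of 165 bp became -88 bp with RefSeq TSSs and 473 bp from the 5′ end of the gene, and the Wdr5 offset of 196 bp became 47 bp with RefSeq TSSs. The main TSS and the RefSeq offsets were chosen after seeing the data. The list has no score, so no stricter calling was tried on significance, and with no reads per site the level of binding that would escape detection is unknown.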
